A study of Mus musculus with 38 samples.

Results

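Notch1-IC chromatin immunoprecipitation was compared between lymphoid progenitors kept without a Notch ligand (LP) and the same cells early after contact with the ligand DLL4 (Phase 1). All peaks on the 19 named autosomes were taken, 1573 of the 1585 in the LP list and 145 of the 152 in the Phase 1 list, and a peak was called shared when it overlapped a peak of the other list by 1 bp or more. This divided the 1667 distinct sites into 1522 found in LP alone, 51 found in both and 94 found in Phase 1 alone. The 17 peak lists of the series held 359759 peaks in all.

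The cells were Cas9-LPs, lymphoid progenitor lines made from the fetal liver of Ebf1-deficient mice that carry Cas9 knocked into Rosa26. Both groups therefore lack Ebf1, a factor needed for the B lineage, and carry Cas9, and both were grown with SCF, Flt3L and IL-7. LP cells were cultured on OP9, a mouse stromal line, and Phase 1 cells on OP9-DLL4, the same stroma made to present the Notch ligand DLL4. Phase 2, used below only for comparison, is a further stage on OP9-DLL4. Each list is built from 2 replicates, which the labels do not tie to separate lines or cultures, and holds only peaks found reproducible between them. No value per replicate can be given, and the tests below take peaks as units, so they cover counting error and not the spread between cultures. Expression was not measured in these files, so the stage of the cells could not be checked against marker genes here.

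Notch1 is a receptor that is cut when it meets a ligand on a neighbouring cell. The freed intracellular part, Notch1-IC, enters the nucleus, where it does not bind DNA by itself but joins the DNA-binding protein RBPJ and recruits Mastermind-like coactivators and p300. In the thymus this signal starts the T cell program, and Hes1, Dtx1, Nrarp and the Notch receptors themselves are well-known targets. RUNX1 is a DNA-binding factor of blood progenitors and T cells, Med12 is a part of the Mediator complex that links such factors to RNA polymerase, and CTCF is a factor of chromatin loops and boundaries.

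The sequences of leading peaks go with the string counts described below. They are given on the plus strand of mm10, as the central part of each peak, read from the RefSeq copy of that build. Capitals mark the RBPJ string GTGGGAA or a RUNX string, TGTGGTT or TGCGGTT, on either strand. The first set holds Phase 1-alone sites, chosen as the highest-scored ones and those next to genes of the Notch pathway or its targets, and 6 of these 10 windows hold the RBPJ string.
Dtx1 intron, chr5:120685797-120685917: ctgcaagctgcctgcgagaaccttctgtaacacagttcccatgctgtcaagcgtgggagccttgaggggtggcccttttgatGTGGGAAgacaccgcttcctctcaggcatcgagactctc
Cnot10 promoter, chr9:114640195-114640315: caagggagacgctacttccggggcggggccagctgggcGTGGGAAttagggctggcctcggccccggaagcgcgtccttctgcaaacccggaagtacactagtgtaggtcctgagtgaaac
Notch3 intron, chr17:32164349-32164469: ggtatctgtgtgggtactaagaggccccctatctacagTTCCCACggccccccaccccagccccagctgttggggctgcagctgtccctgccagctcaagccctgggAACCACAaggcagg
Rbpj intron, chr5:53589268-53589388: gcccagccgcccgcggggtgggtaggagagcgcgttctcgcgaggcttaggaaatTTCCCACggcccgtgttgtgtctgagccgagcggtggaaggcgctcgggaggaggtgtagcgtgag
Notch1 intron, chr2:26502356-26502476: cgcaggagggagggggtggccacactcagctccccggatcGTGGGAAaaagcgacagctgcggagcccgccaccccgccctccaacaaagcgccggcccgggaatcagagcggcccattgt
Upstream of Nrarp, chr2:25172759-25172879: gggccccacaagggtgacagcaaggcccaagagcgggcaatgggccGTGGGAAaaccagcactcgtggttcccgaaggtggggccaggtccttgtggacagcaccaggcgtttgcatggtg
Upstream of Il2ra, chr2:11623314-11623434: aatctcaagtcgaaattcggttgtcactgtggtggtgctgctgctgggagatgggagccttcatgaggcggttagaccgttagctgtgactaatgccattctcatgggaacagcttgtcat
Nck2 intron, chr1:43500367-43500487: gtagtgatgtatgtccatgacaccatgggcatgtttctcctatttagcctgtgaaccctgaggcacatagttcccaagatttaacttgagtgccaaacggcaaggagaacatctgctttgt
Dtx1 intron, further peak, chr5:120688572-120688692: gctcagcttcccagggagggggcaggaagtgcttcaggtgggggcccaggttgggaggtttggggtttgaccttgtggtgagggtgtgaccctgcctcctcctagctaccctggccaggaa
Hey2 promoter, chr10:30842838-30842958: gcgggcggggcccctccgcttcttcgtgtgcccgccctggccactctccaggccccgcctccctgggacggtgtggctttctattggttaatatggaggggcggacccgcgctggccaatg
The windows of Il2ra, Nck2 and the further Dtx1 peak lack the full string but each holds its 6-letter core, TGGGAA, and that of Hey2 holds neither. The further Dtx1 peak and the Hey2 peak hold the string within 200 bp around the centre, outside the part shown. The highest-scored LP-alone sites whose windows touch no exon hold neither the string nor its core.
Atrnl1 intron, near Mir5623, chr19:57994467-57994587: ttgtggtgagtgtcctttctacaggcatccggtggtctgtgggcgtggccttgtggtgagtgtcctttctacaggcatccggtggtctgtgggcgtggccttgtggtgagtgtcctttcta
Between Hes1 and Cpn2, chr16:30185021-30185141: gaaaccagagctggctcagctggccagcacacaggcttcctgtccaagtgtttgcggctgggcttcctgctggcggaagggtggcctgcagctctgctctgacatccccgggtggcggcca
Upstream of C130026L21Rik, chr5:111553580-111553700: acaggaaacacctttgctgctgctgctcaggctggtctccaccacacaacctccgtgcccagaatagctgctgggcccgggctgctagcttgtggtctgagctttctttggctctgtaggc
Of the shared sites, the 6 with the highest Phase 1 scores lie in long terminal repeats and are described by name only. Those shown here lie in sequence present once in the genome, and are the next by Phase 1 score, B4galnt2 and Arl4c, and the one with the highest LP score, which was added after its values were seen.
B4galnt2 intron, chr11:95907946-95908066: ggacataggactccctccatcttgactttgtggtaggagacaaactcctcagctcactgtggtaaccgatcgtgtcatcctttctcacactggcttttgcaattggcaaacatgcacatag
Near Arl4c, chr1:88654997-88655117: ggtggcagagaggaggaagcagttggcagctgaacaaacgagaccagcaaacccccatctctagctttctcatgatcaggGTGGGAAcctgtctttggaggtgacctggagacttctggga
Upstream of Notch1, near Gm35978, chr2:26513469-26513589: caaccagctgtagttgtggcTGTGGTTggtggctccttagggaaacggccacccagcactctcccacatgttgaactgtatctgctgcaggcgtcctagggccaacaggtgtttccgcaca
The B4galnt2 window holds no string, the Arl4c window an RBPJ string and that upstream of Notch1 a RUNX string. The promoter of Hes1 is not in the RefSeq promoter table used here, and its peak is given by position alone.

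Few peaks of the LP list overlapped a peak of the Phase 1 list, which is far shorter. The 51 shared peaks made up 3.24% of the LP list (95% Wilson interval 2.47 to 4.24%) and 35.2% of the Phase 1 list (27.9 to 43.2%). Each shared Phase 1 peak overlapped 1 LP peak. With 145 peaks in the Phase 1 list, the shared part of the LP list could only be low, and it is not read as a loss of sites. LP peaks are 207 bp wide and Phase 1 peaks 241 bp, and the shared length ran from 48 bp, near Treh, to 207 bp, with a median of 184 bp. The closest pair that did not overlap lay 0.527 kb apart, centre to centre, near Runx3. For the 94 Phase 1-alone peaks the median distance to the closest LP peak was 270.1 kb, 9 lay within 10 kb of one and 25 within 50 kb. The LP list was the longer one, and since the lists do not give read depth, the part of depth or of enrichment in the lengths of the lists was not tested. When the LP list was shortened to its 145 highest-scored peaks, 14 were shared, or 9.66% of each list, and 9 of these lay in repeated sequence.

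Phase 1-alone peaks lay at promoters far more often than LP-alone peaks. Of the Phase 1-alone peaks, 30 of 94 (31.9%) were annotated as promoter, among them those of Hes1, Hey2, Cnot10, Zbtb11 and Tpmt, against 119 of 1522 LP-alone peaks (7.82%). The odds ratio was 5.53 (two-sided Fisher's exact test, adjusted p = 5.97e-10 over the 15 tests made), and 6 of the 51 shared peaks (11.8%) were at promoters. All RUNX1 peaks had a promoter share of 28.2% in LP cells and 23.8% in Phase 1. LP-alone peaks were below both, and the interval of the Phase 1-alone share, 23.4 to 41.9%, holds both. The Phase 2 Notch1-IC list, also from cells with ligand, had 22 of 335 autosomal peaks at promoters (6.57%), near the LP-alone share. LP-alone peaks lay instead mainly in introns (38.9%) and between genes (47.8%), with 2.43% in exons. Among the shared peaks 64.7% were intergenic and 23.5% intronic, and among the Phase 1-alone peaks 34.0% and 33.0%.

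The distance to the nearest transcription start followed the same pattern. The median absolute distance was 18.7 kb for LP-alone peaks, 17.5 kb for shared peaks and 4.29 kb for Phase 1-alone peaks. Within 1 kb of a start lay 10.6% of LP-alone, 17.6% of shared and 36.2% of Phase 1-alone peaks. Once promoter peaks were set aside, the medians were 21.0 kb and 17.6 kb for LP alone and Phase 1 alone. The share over 50 kb from a start was 24.2% in LP alone and 18.1% in Phase 1 alone, a difference that did not pass the test (odds ratio 0.690, Fisher's exact test, adjusted p = 0.318).

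**Figure D1:**
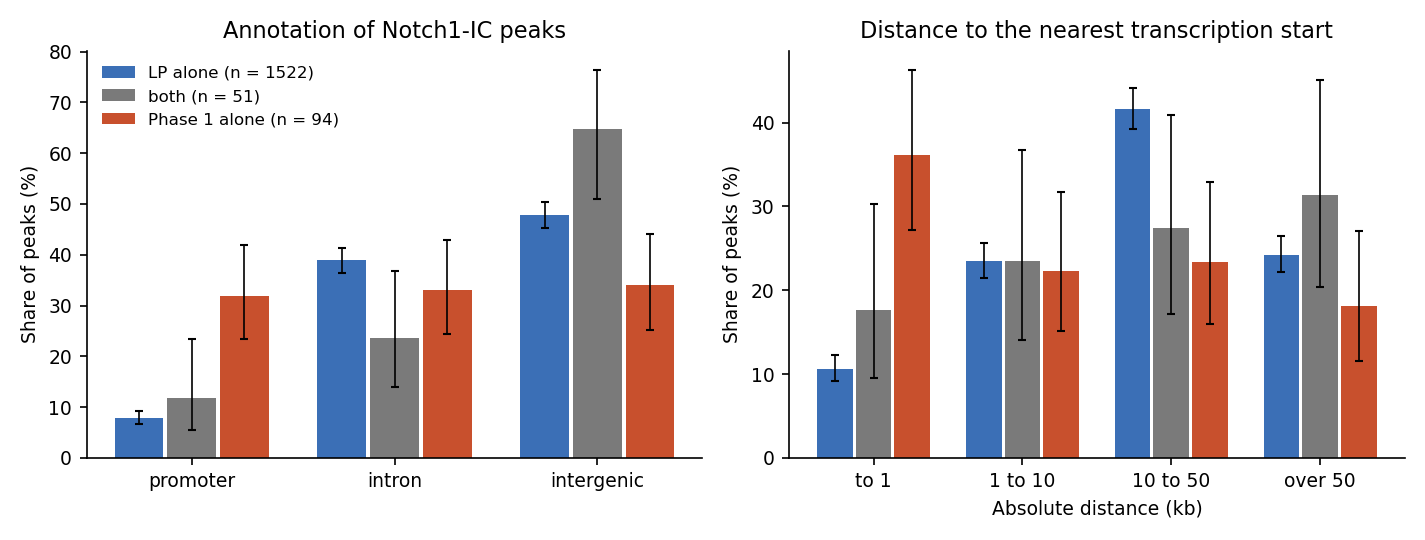
Bars give the share of Notch1-IC peaks in each annotation (left) and in each class of absolute distance to the nearest transcription start in kb (right), for peaks of LP alone (n = 1522), both (n = 51, LP peaks) and Phase 1 alone (n = 94); error bars are 95% Wilson intervals. Promoters hold 31.9% of Phase 1-alone peaks and 7.82% of LP-alone peaks, and the 10 to 50 kb class holds 23.4% and 41.7%.

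The RBPJ string was most frequent in Phase 1-alone peaks. Within 200 bp around the peak centre it occurred in 43 of 94 Phase 1-alone peaks (45.7%), 8 of 51 shared peaks (15.7%) and 62 of 1522 LP-alone peaks (4.07%). Phase 1 alone differed from LP alone with an odds ratio of 19.9 (Fisher's exact test, adjusted p = 7.48e-29), and shared peaks from LP alone with an odds ratio of 4.38 (adjusted p = 0.00301). The second of these calls was lost with a 100 bp window or a minimum score of 30 (Fisher's exact test, adjusted p = 0.132 and 0.0690). For 3 of the 8 shared peaks the central 50 bases occur more than once in the genome, so the 8 may not be separate sites. With single-copy peaks alone, 5 of 28 shared peaks held the string (odds ratio 4.64, Fisher's exact test, adjusted p = 0.0162). Counted around the centres of the Phase 1 peaks, 11 shared sites held the string, and 4 of these were copies of RLTR3_Mm. The LP-alone share was close to what the same search gave elsewhere: 4.34% in windows 2 kb to either side of these peaks, 4.24% in all LP RUNX1 peaks and 4.28% in the 200 bases before the starts of RefSeq promoters. The flanks of the Phase 1-alone peaks gave 5.32% and all Phase 1 RUNX1 peaks also 5.32%. The 6-letter core was in 68.1% of Phase 1-alone, 29.4% of shared and 12.9% of LP-alone peaks, and in 17.3% of the RefSeq promoters.

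In Phase 1-alone peaks the RBPJ string lay near the centre. The median distance was 18.5 bp from the peak centre in Phase 1 alone, with 28 of 43 strings within 30 bp, and 51.5 bp in LP alone, with 22 of 62 within 30 bp. The string was not limited to one kind of site: 13 of 30 Phase 1-alone promoter peaks held it (43.3%), as did 30 of 64 outside promoters (46.9%), whereas 5 of 119 LP-alone promoter peaks did (4.20%). Hes1, Cnot10, Zbtb11 and Hey2 were among the promoters with the string, and Tpmt was without it. Phase 1-alone peaks with and without the string had median scores of 17.8 and 18.7.

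The RUNX strings were less frequent in Phase 1 alone than in LP alone. They occurred in 504 LP-alone peaks (33.1%), 22 shared peaks (43.1%) and 20 Phase 1-alone peaks (21.3%), with an odds ratio of 0.546 for Phase 1 alone against LP alone (Fisher's exact test, adjusted p = 0.0284). That call was lost when promoter peaks were left out, where the shares were 26.6% and 34.6% (odds ratio 0.682, Fisher's exact test, adjusted p = 0.376). In flanking windows the RUNX strings were in 5.58% of LP-alone and 7.98% of Phase 1-alone windows, so both classes stood above their surroundings, and 4.48% of the RefSeq promoters held one. RUNX strings were in 21.3% of all LP RUNX1 peaks and 25.4% of all Phase 1 RUNX1 peaks. The Phase 1-alone share is near these values and the LP-alone share is above them. GAGGAAGT, a string bound by PU.1, a factor of progenitors and myeloid cells, was in 143 LP-alone peaks (9.40%) and in 1 Phase 1-alone peak (1.06%), an odds ratio of 0.104 (Fisher's exact test, adjusted p = 0.00434). This call was lost in 5 of 9 alternatives, for example without promoter peaks (odds ratio 0.153, Fisher's exact test, adjusted p = 0.0541) and with the shortened LP list (0.275, adjusted p = 0.323). It was in 9.03% of all LP RUNX1 peaks, which is close to the LP-alone share, in 8.65% of all Phase 1 RUNX1 peaks and in 2.06% of the RefSeq promoters. Strings of AP-1, found in 3.66% of the RefSeq promoters, TGACTCA or its reverse complement TGAGTCA, were in 6.57% and 3.19% of LP-alone and Phase 1-alone peaks, a difference that did not pass (odds ratio 0.469, Fisher's exact test, adjusted p = 0.374). The GC content of the 200 bp differed too, with medians of 53% in LP alone and 57% in Phase 1 alone, and its part in the string counts was not tested.

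**Figure D2:**
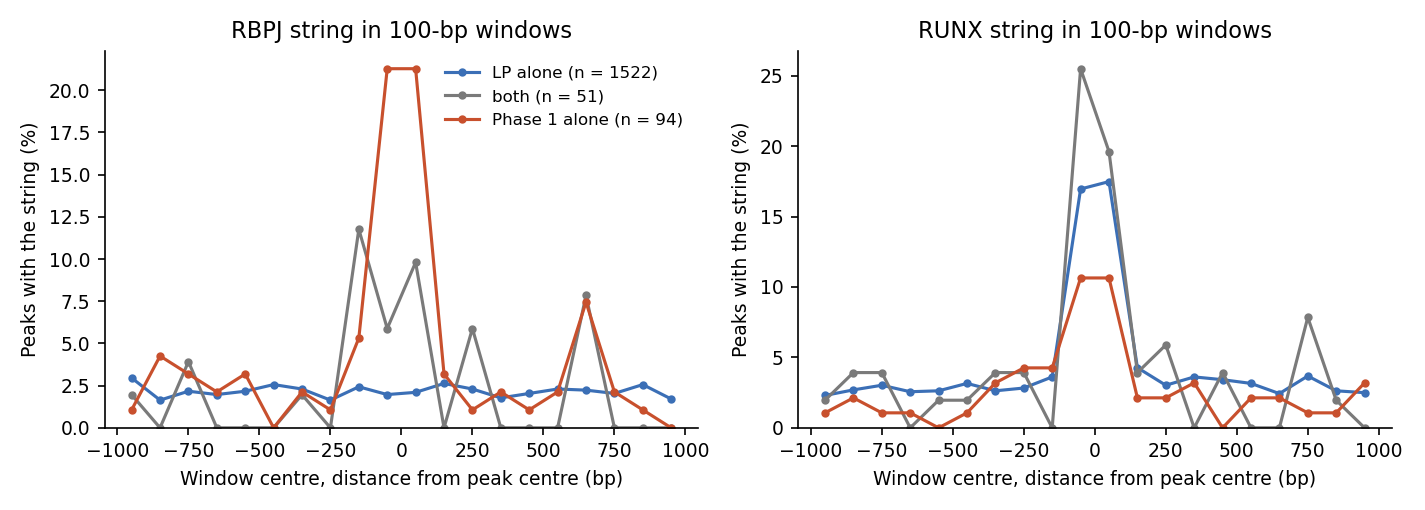
Lines give the share of peaks with an RBPJ string (left) or a RUNX string (right) in windows of 100 bp, by the distance of the window from the peak centre in bp, for LP alone (n = 1522), both (n = 51, LP peaks) and Phase 1 alone (n = 94). The RBPJ string reaches 21.3% of Phase 1-alone peaks in each window next to the centre and stays between 1.64% and 2.96% at all distances in LP alone, and the RUNX strings rise at the centre in every class.

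Nearly all LP-alone peaks of the Notch1-IC list overlapped RUNX1, p300 and Med12 peaks of LP cells. These cells had no ligand, and whether the signal at these peaks comes from Notch1-IC itself was not tested. LP-alone peaks overlapped an LP RUNX1 peak in 89.8% of cases, an LP p300 peak in 90.5% and an LP Med12 peak in 89.8%, and all 3 together in 88.0%. The RUNX1, p300 and Med12 peaks they met were high-scored ones, with median score percentiles in their own lists of 90.2, 94.0 and 88.1. This was not particular to LP alone. For shared peaks the values in the LP lists were 92.8, 96.6 and 93.0. For Phase 1-alone peaks they were 81.1, 83.4 and 81.9 in the LP lists and 90.9, 94.6 and 96.0 in the Phase 1 lists. Seen from the other side, only a small part of the LP RUNX1 list, 4.50% of its 31351 autosomal peaks, overlapped an LP Notch1-IC peak. After ligand the LP-alone sites still carried these factors, with 89.5% in the Phase 1 RUNX1 list, 89.6% in the p300 list and 89.8% in the Med12 list.

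Phase 1-alone peaks met the LP factors less often. Their share was 70.2% for LP RUNX1 (odds ratio 0.267, Fisher's exact test, adjusted p = 1.00e-06), 69.1% for LP p300 (odds ratio 0.234, adjusted p = 1.00e-07) and 68.1% for LP Med12 (odds ratio 0.244, adjusted p = 1.09e-07). In Phase 1 itself the shares were 90.4% for RUNX1, 92.6% for p300 and 92.6% for Med12, and none of the differences from LP alone passed (odds ratios 1.11, 1.44 and 1.41, Fisher's exact test, adjusted p = 1, 0.556 and 0.556). Of the 94 Phase 1-alone sites, 20 (21.3%) had a RUNX1 peak in Phase 1 but none in LP, against 20 of 1522 LP-alone sites (1.31%). For Med12 the counts were 24 (25.5%) and 38 (2.50%). Dtx1, Il2ra, Nrarp and the Hes1 promoter were among the sites without LP RUNX1, whereas Cnot10 and Tpmt were occupied by RUNX1 in both stages. For CTCF no difference was detected: 18.1% of LP-alone and 17.0% of Phase 1-alone peaks overlapped an LP CTCF peak (odds ratio 0.930, Fisher's exact test, adjusted p = 0.954). Both shares are below the 23.2% of all LP RUNX1 peaks and 23.2% of all LP p300 peaks that overlapped one. The CTCF peaks met by LP-alone peaks had a median score percentile of 31.8.

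The Phase 2 Notch1-IC list held many of the Phase 1-alone sites and few of the LP-alone sites. Phase 2 peaks overlapped 47 of 94 Phase 1-alone peaks (50.0%), 33 of 51 shared peaks (64.7%) and 49 of 1522 LP-alone peaks (3.22%). The odds ratio of Phase 1 alone against LP alone was 30.1 (Fisher's exact test, adjusted p = 2.84e-36). Among Phase 1-alone peaks, 41 of 64 outside promoters (64.1%) were in Phase 2, and 6 of 30 at promoters (20.0%). The share of LP-alone peaks is bounded by the length of the Phase 2 list. Of its 335 autosomal peaks, 82 (24.5%) overlapped the LP list and 82 the Phase 1 list.

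**Figure D3:**
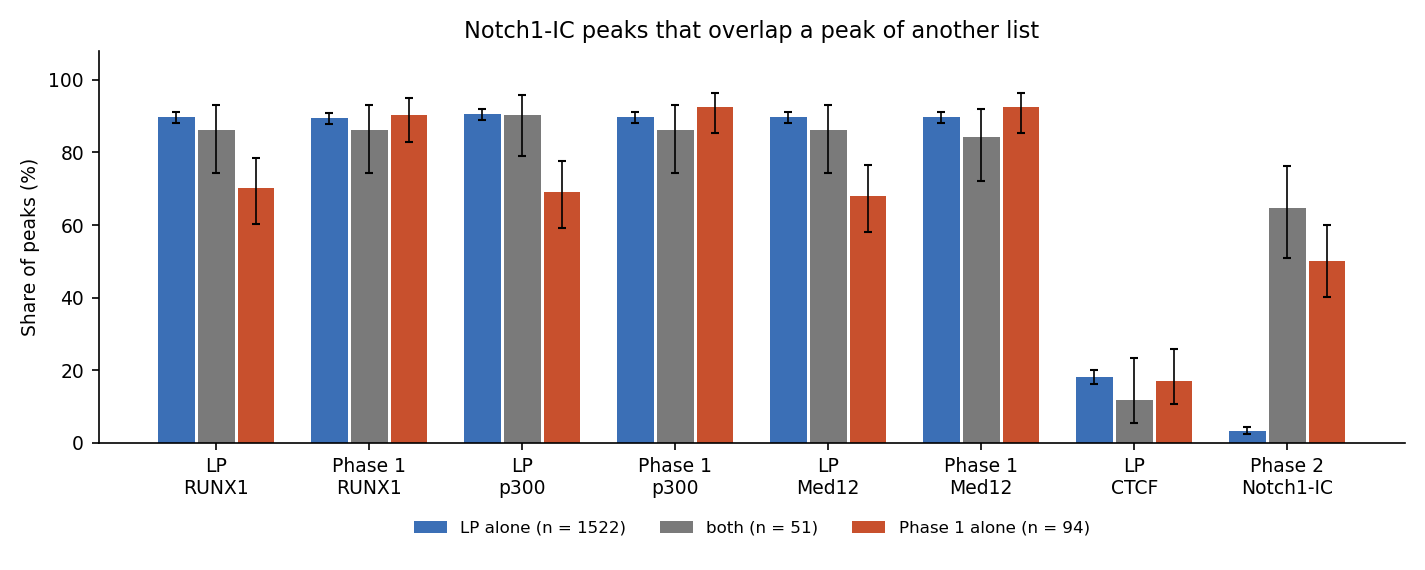
Bars give the share of Notch1-IC peaks that overlap a peak of the list named below by 1 bp or more, for LP alone (n = 1522), both (n = 51, LP peaks) and Phase 1 alone (n = 94); error bars are 95% Wilson intervals. Phase 1-alone peaks are below LP-alone peaks for LP RUNX1, p300 and Med12 (70.2% against 89.8% for RUNX1), and above them for Phase 2 Notch1-IC (50.0% against 3.22%).

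Scores are the normalized peak scores of the files, with a minimum of 15. LP-alone peaks had a median of 20.2 (quartiles 16.9 and 27.3, highest 162.4) and Phase 1-alone peaks a median of 18.55 (quartiles 16.4 and 24.1, highest 80.1). Shared peaks were most frequent among the highest-scored LP peaks, and most of these lay in repeated sequence. Of the 158 LP peaks with the highest scores, 14 were shared (8.86%, interval 5.35 to 14.3%), and of the 157 with the lowest, 2 (1.27%, interval 0.350 to 4.53%). Of the 14, 9 had more than 1 copy of their central 50 bases. Among the single-copy peaks of these classes, 5 of 133 (3.76%, interval 1.62 to 8.50%) and 1 of 147 (0.680%, interval 0.120 to 3.75%) were shared, and these intervals overlap. In the Phase 1 list divided into 5 classes by score, the shared part was 13 of 29 in the highest class (44.8%) and between 31.0% and 34.5% in the others, with intervals that overlap throughout. The RBPJ string was in 6.33% of the 158 highest LP peaks and 4.46% of the 157 lowest, and promoters made up 4.43% and 15.3%, values given without a test. The focus ratio, HOMER's fraction for how tightly reads gather around a peak centre, had medians of 0.789 in LP alone, 0.743 in shared and 0.841 in Phase 1-alone peaks.

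A large part of the shared peaks lay in repeated sequence. The central 50 bases occurred more than once in the genome for 23 of 51 shared peaks (45.1%), 158 of 1522 LP-alone peaks (10.4%) and 3 of 94 Phase 1-alone peaks (3.19%). Long terminal repeats, the ends of endogenous retroviruses, held 27.5%, 8.02% and 2.13%. The highest-scored of these were 3 pairs of RLTR3_Mm elements 8.55 to 8.57 kb apart, in an intron of Coro2a on chromosome 4, on chromosome 6 and on chromosome 12. They took places 2 to 7 of the Phase 1 list, with Phase 1 scores of 67.7 to 74.5 and LP scores of 105 to 113.2, and the central 50 bases of each had 6 copies. Reads with up to 10 placements could be kept in the alignment, so these sites cannot be told apart from their copies. Repeated peaks met other factors less often: LP RUNX1 peaks covered 31.6% of LP-alone peaks in repeated sequence and 96.6% of those in single-copy sequence. With single-copy peaks alone, the shared part fell to 28 peaks, 2.01% of the LP list and 23.5% of the Phase 1 list, an alternative added after seeing the data.

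Among the 28 shared peaks in single-copy sequence the scores of the lists did not go together (Spearman rho = -0.34, n = 28 sites, as a description). The value for the 23 repeated ones was 0.70. These include copies of the same sequence, such as the 6 RLTR3_Mm elements, and are not 23 separate sites. The 2 values are therefore not compared. The single-copy shared peak with the highest LP score lay on chromosome 2, 26513409 to 26513649 in the Phase 1 list, 9.71 kb upstream of the annotated start of Notch1, although the files name the non-coding gene Gm35978. Its LP score was 114.5, place 5 of the list, and its Phase 1 score 27.4. Near I730028E13Rik the order was the reverse, with 45.3 in Phase 1 and 19.8 in LP. B4galnt2 (33.9 and 17.7), Arl4c (31.9 and 15.4) and Stard3nl (29.9 and 16.7) also scored higher in the Phase 1 list. The scale of the normalized scores is not stated, so those of the 2 lists are set side by side without a test.

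**Figure D4:**
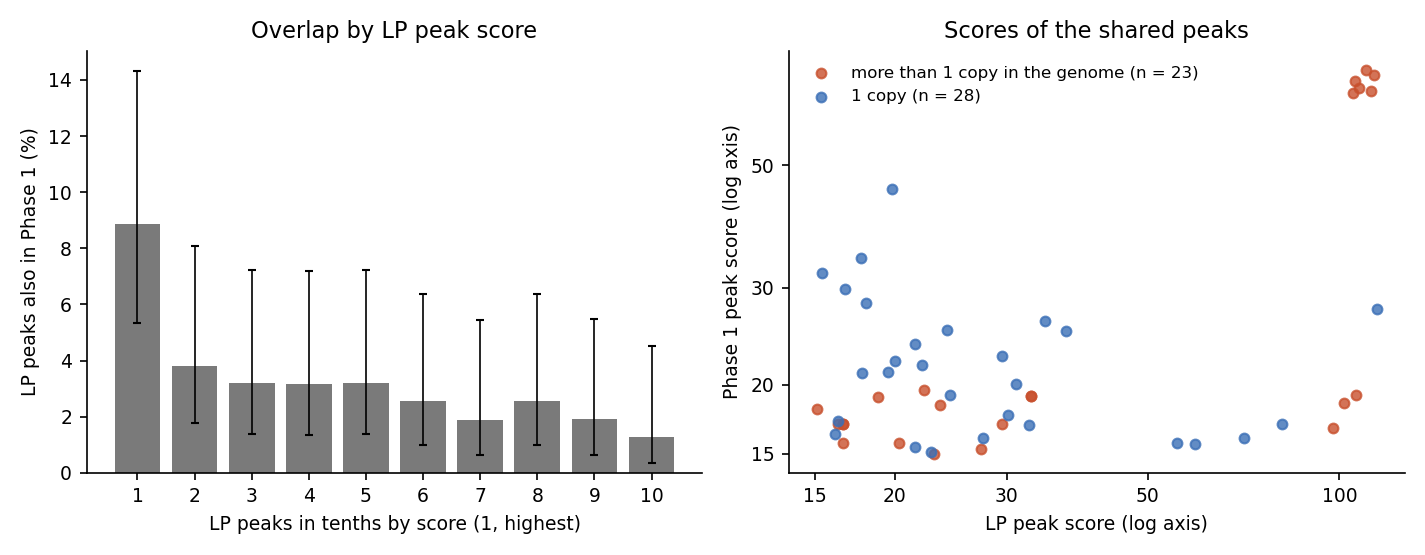
Left, the share of LP peaks that overlap a Phase 1 peak, for 10 classes of the LP list ordered by score (1, highest), with 95% Wilson intervals; right, the Phase 1 score against the LP score of each of the 51 shared peaks on log axes, coloured by whether the central 50 bases occur once (n = 28) or more often (n = 23) in the genome. The share is 8.86% in the highest class, where 9 of 14 shared peaks are repeated, and 1.27% in the lowest, and the 6 RLTR3_Mm sites form the group at the upper right.

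The leading Phase 1-alone peaks included known Notch targets and other genes. The highest score, 80.1, lay in an intron of Nck2, an adaptor of receptor signalling, 54.7 kb from its start on chromosome 1, and a further peak in that gene scored 16.2. Next came the promoter of Hes1, a transcriptional repressor and Notch target (61.4, chromosome 16, 30065141 to 30065381), and that of Cnot10, of the mRNA deadenylation complex (58.2). An intron of Dtx1, a Notch-binding ubiquitin ligase, followed with 56.1, and then Olfr646 with 54.2, Armc12 with 39.5, Gm11837 in an intron of Necab1 with 36.5, and Tpmt with 35.3. The last of the 10 were near 8430430B14Rik with 33.0 and at the promoter of Zbtb11 with 31.3. Of these, the peaks of Hes1, Cnot10, Dtx1, Gm11837 and Zbtb11 held the RBPJ string. A peak of score 25.7 that the files assign to Gm20740 lay 1.27 Mb downstream of the start of Myc, and the Phase 2 peak there scored 166.4. This peak, and the distances of peaks to Myc, Notch1 and Hes1, are named after their values were seen.

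Genes of the Notch program were among the nearest genes of Phase 1-alone peaks. Of 24997 autosomal RefSeq genes, 81 were the nearest gene of a Phase 1-alone peak (0.324%), 38 of a shared peak (0.152%) and 1132 of an LP-alone peak (4.53%). Of 19 Notch target genes, 7 were nearest to a Phase 1-alone peak (Hes1, Hey2, Nrarp, Dtx1, Il2ra, Notch1 and Notch3). None was nearest to a shared peak and 2 were nearest to an LP-alone peak (Tcf7 and Cdkn1a). Tcf7 was also the nearest gene of 1 Phase 2 peak. The authors report Notch1-IC at enhancers of Tcf7 and Gata3, particularly after Notch stimulation. Neither gene is the nearest gene of a Phase 1 peak in the list used here. The list of target genes was drawn up with earlier results of these data known. Hes1 and Dtx1 had 2 Phase 1-alone peaks each. The second peak of Hes1 was 1.24 kb upstream with a score of 22.9, and that of Dtx1 scored 19.6. Notch3, a Notch receptor, had a peak of 28.4 in an intron, 2.44 kb from its start. Il2ra, the CD25 chain of the IL-2 receptor, had a peak of 24.4 lying 19.4 kb upstream. Notch1 had 20.5 in an intron 1.41 kb from its start, Nrarp, an inhibitor of Notch signalling, 17.1 at 7.94 kb upstream, and Hey2, a Hes-related repressor, 15.3 at its promoter. Of these 9 peaks, 7 held the RBPJ string, 3 overlapped an LP RUNX1 peak and all 9 overlapped Phase 1 RUNX1, p300 and Med12 peaks, while 7 were in the Phase 2 list. Over all Phase 1-alone peaks these shares were 45.7%, 70.2%, 89.4% and 50.0%, so the overlap with the 3 Phase 1 factors is near that of the class.

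In the Notch pathway list of 28 genes, 3 were nearest to a Phase 1-alone peak, Notch1, Notch3 and Rbpj, none to a shared peak and 3 to LP-alone peaks. The shares over all genes were 0.324%, 0.152% and 4.53%. Notch1 and Notch3 are also counted in the Notch target list above, and Rbpj is not. The Rbpj peak scored 22.6, lay 1.02 kb upstream of the nearest start and held the RBPJ string. The LP-alone genes included Maml3, a Mastermind-like coactivator, with a score of 88.3 in an intron 104.8 kb from its start, and Lfng, a glycosyltransferase that modifies Notch, with 15.6 and 22.8. No RBPJ string was found in these 3 LP-alone peaks, and all 3 overlapped LP RUNX1 peaks. Both are near the shares of all LP-alone peaks, 4.07% and 89.8%. In the list of 27 early T cell genes, 2 were nearest to Phase 1-alone peaks, Zap70 with 25 and Il2ra, against 0.324% of all genes. The Zap70 peak lay in an intron of Tmem131, 56.9 kb from the Zap70 start. Il2ra, and Tcf7 named below, are also in the Notch target list. Another 8 early T cell genes were near LP-alone peaks, against 4.53% of all genes, with scores of 15.2 to 30.2. Tcf7 had the highest, at 30.2, and Cd247, Cd44, Cd2, Lef1, Lat, Tox and Gfi1 followed. The Lat promoter peak, with a score of 16.1, was the one of these 8 with an RBPJ string.

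Several progenitor genes were the nearest genes of LP-alone peaks, as were 8 of the 27 early T cell genes. Of 26 progenitor and myeloid genes, 7 were nearest to an LP-alone peak, against 4.53% of all genes, none to a shared peak and none to a Phase 1-alone peak. They were Lyl1, Mef2c, Flt3, Cd34, Bcl11a, Erg and Csf1r. Lyl1, a bHLH factor of blood progenitors, had peaks of 125.3 and 24, Mef2c, a MADS-box factor of lymphoid progenitors, 77.0, Flt3, the receptor of the Flt3L in the medium, 41.9, and Cd34, a progenitor surface protein, 37.5. No RBPJ string was found in the 9 LP-alone peaks of these genes, and all 9 overlapped LP RUNX1 peaks. Over all LP-alone peaks the shares were 4.07% and 89.8%, so nothing particular to these genes is read from this. The 0 of 26 in shared and Phase 1-alone peaks is close to the backgrounds of 0.152% and 0.324%, and nothing is read from it. Of 15 B lineage genes, Bach2 was near 2 LP-alone peaks and no gene was near the other classes. This 1 gene of 15 is near the 4.53% of all genes, and nothing is read from it.

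Of 5 genes in the RUNX list, 3 were near LP-alone peaks and 1, Runx3, near a Phase 1-alone peak, against 4.53% and 0.324% of all genes. Runx3 had 6, with scores of 26.1, 20.7, 33.9, 32.4, 16.5 and 62.5 from upstream to downstream, and the highest of these, 72.4 kb after the start, held an RBPJ string. A Phase 1-alone peak of score 15.5 lay 0.527 kb from the second of them, with an RBPJ and a RUNX string, and overlapped none of the RUNX1, p300 or Med12 peaks of either stage. Runx1 had 3 LP-alone peaks with 30.7, 24.6 and 31.2, the last with an RBPJ string, and Runx2 had 1 with 18.7.

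The highest LP-alone score, 162.4, lay in an intron of Atrnl1 on chromosome 19, where the central 50 bases have 4 copies in the genome. The next, 152.5, lay on chromosome 16, 30184978 to 30185184, which the files assign to Cpn2. It was 1 of 4 LP-alone peaks in the interval 116.0 to 168.9 kb downstream of the Hes1 start, the others scoring 36.6, 51.5 and 15.5. All 4 overlapped LP RUNX1 peaks and none held the RBPJ string, near the shares of all LP-alone peaks (89.8% and 4.07%). The Phase 1-alone peaks of that region were at Hes1 itself. Others among the highest were Lyl1 (125.3, 1.34 kb upstream of its start and at the end of Trmt1), C130026L21Rik (123.9), Arid3a (108.7), Atp13a2 (105.0), Llph (104.9, in an RLTR44 internal repeat), Cbfa2t3 (101.7) and Dtnbp1 (100.6, in a repeat of ribosomal RNA sequence). The last of these and Llph met none of the other factors.

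The 12 nearest genes with the most LP-alone peaks held 55 peaks between them, 22 of them in repeated sequence. Of the 55, 42 overlapped LP RUNX1 peaks and 2 held an RBPJ string, against 89.8% and 4.07% of all LP-alone peaks. After Runx3, the single-copy ones were Cbfa2t3, a corepressor of blood progenitors, with 5 peaks of 25.7 to 101.7, Gm5122, Rcbtb2 and Cpn2 with 4 each and highest scores of 64.2, 59.0 and 152.5, Gm17746 with 4, and Smad3, a factor of TGF-beta signalling, with 4 peaks of 16.3 to 29.1. Speer1, 1700003C15Rik and Gm5861, on chromosome 5 between 11168042 and 11840221, had 13 peaks, all of 5 to 10 copies and 3 with LP RUNX1. The 4 peaks of Tex14 had 4 copies each. The 7 peaks assigned to Mir6388, with scores of 15.1 to 20.6, lay among variable segments of the Igh locus on chromosome 12, and 5 of them were repeated. Receptor segments are not named as nearest genes in the files. Between the first and last annotated segment, the Tcra and Tcrd locus held 9 LP-alone, 3 shared and 1 Phase 1-alone peaks, Tcrb 2, 1 and 0, Tcrg 1, 2 and 0, and Igk 3, 2 and 0. Many of these were repeated too, so the counts are not of separate sites. In Tcra and Tcrd all shared peaks, and all LP-alone peaks but the one near Trav1, had 2 to 6 copies. The LP-alone peaks of Tcrb had 9 copies each, all peaks of Tcrg 3, and the shared peaks of Igk 6. Of the 10 nearest genes common to LP-alone and Phase 1-alone peaks, Runx3, Zfp36l2 and Kdr had more than 1 LP-alone peak.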

How the data were processed

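Chromatin immunoprecipitation sequencing of Notch1-IC, with a mixture of 2 antibodies, was done on 2 replicates each of LP and Phase 1 cells fixed with disuccinimidyl glutarate and formaldehyde. The authors aligned reads to mm10 with Bowtie 1.1.1, keeping reads with up to 10 placements, called peaks with HOMER against a matched control, kept those reproducible between replicates, and deposited each list with a normalized peak score of at least 15, a focus ratio as a fraction, an annotation, and the distance to and name of the nearest start or gene. The lists hold no read counts, so the depth behind each list is unknown here. The authors report more reproducible Notch1-IC peaks in Phase 1 and in Phase 2 than the lists used here hold. The reason is not known, and the shares given here hold for these lists only.

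Overlaps, 95% Wilson intervals and 15 two-sided Fisher's exact tests (Benjamini-Hochberg, threshold 0.05; 0.5 added to each cell for odds ratios with a zero) were computed with Python 3.11.15, pandas 2.3.3 and scipy 1.17.1, after the tests were tried on simulated data. Strings were searched on both strands of the GRCm38.p6 sequence with pysam 0.24.0, and copies were counted as matches of the central 50 bases. Of 1232 nearest-gene names, 1230 were found in RefSeq. Promoter is the annotation of the files. The text names the 10 highest-scored peaks of each class, the 12 nearest genes with the most LP-alone peaks, listed genes near a Phase 1 peak and 6 per list near LP-alone peaks; where a list had more, the rest were named after their values were seen. Some genes under this rule are not reported here. Members, lists and tests were chosen with earlier results of these data known. Sequences were meant for the 3 highest-scored peaks of each class and for those at Notch target genes. Windows that touch an exon, windows in long terminal repeats and the Hes1 promoter were left out, the next peaks were taken, and those at Rbpj and upstream of Notch1 were added. The alternatives changed the overlap, the minimum score, the length of the LP list, the chromosomes, promoters, repeats, the string window and the string.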

Additional observations from a re-analysis of the deposited data

How the results depend on the processing

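The 17 results were recomputed under up to 10 alternatives each, 142 values in all, of which 112 kept their direction and side of the threshold, or moved by less than their interval. The 2 alternatives on single-copy peaks and on a score minimum set after the classes were chosen after seeing the data. The promoter share (odds ratios 4.94 to 18.4), the RBPJ string share of Phase 1 alone against LP alone (14.3 to 34.4) and the Phase 2 share (28.4 to 167.6) kept their calls under all alternatives run for them.

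The shared part of the LP list moved to 1.79% with a minimum score of 30 in both lists, 9.66% with the LP list cut to the length of the Phase 1 list, 2.01% with single-copy peaks and 6.27% with a minimum of 30 set after the classes. That of the Phase 1 list moved to 9.66%, 23.5% and 47.4% under the last 3 of these. With a minimum score of 30 in both lists, 13 Phase 1-alone peaks are left, and the odds ratios that no longer passed were 12.2 for RBPJ in shared peaks, 0.377 for RUNX, 0.661 for PU.1, 0.359 for LP RUNX1, 0.201 for LP p300 and 0.217 for LP Med12 (adjusted p from 0.0690 to 1). With the minimum set after the classes they were 0.512 for RUNX, 0.861 for PU.1 and 0.246 for LP RUNX1. Other lost calls were RUNX at 0.696 and PU.1 at 0.275 with the shortened LP list, RUNX at 0.682 and PU.1 at 0.153 without promoter peaks, and RBPJ in shared peaks at 3.46 and PU.1 at 0.196 with a window of 100 bp. The PU.1 call, which rests on 1 Phase 1-alone peak, was lost in 5 of 9 alternatives and the RUNX call in 4 of 9.

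Results that had not passed the test changed direction, without passing it, in 8 cases. The Phase 1 RUNX1 odds ratio became 0.980 with an overlap of at least 50% of the shorter peak, 0.945 with all sequences and 0.485 with single-copy peaks, where those of Phase 1 p300 and Med12 were both 0.695. The LP CTCF odds ratio became 1.12 with the shortened list and 1.20 without promoter peaks, and that of distances over 50 kb 1.01 without promoter peaks. The causes were not tested. No paired analysis was possible because each list pools its 2 replicates, and for the same reason no replicate could be left out.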
